A study of Mus musculus with 4 samples.

Results

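The regions described here were narrow, had footprints with high tag counts in both cDC1 and pDC, and held few footprints in either. After the peak intervals of both cell types were merged, 93615 regions remained, of which 40721 overlapped an interval of each cell type and 40028 of these lay on autosomes. Of the autosomal ones 33332 were narrower than 1000 bp, and 5087 of those (15.3%) had 1 to 4 footprints in the cDC1 list and 1 to 4 in the pDC list. The largest tag count of a footprint had to be at least 800 in cDC1 and at least 200 in pDC, which left 298 members. Of 4026 narrow regions that met both limits on the tag count, the members were 7.40%, and 2 regions on sex chromosomes met all the rest of the rule and were not counted. The members were thus chosen by their width, footprint numbers and largest tag counts, which are given below only as a description.

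Both cell types were grown from mouse bone marrow, which was first amplified with cytokines and then driven to differentiate with Flt3 ligand, and were sorted by surface markers. The cDC1 were taken as CD11c+ CD11b+ XCR1+ cells and the pDC as CD11c+ CD11b- B220+ cells, with no further treatment named for either. Omni-ATAC-seq was made on 2 replicate samples of each, with no word on whether a replicate was a culture or an animal of its own. Only lists of the pooled replicates were compared, so no replicate error exists. No p-value was computed. The cDC1 list held 94222 peaks and 513689 footprints, and the pDC list 59941 and 312959. These lists do not hold the number of reads. The mean tag count per footprint was 362.03 in cDC1 and 142.1 in pDC, so values of pDC rest on fewer tags. Positions are in mm9. No mm9 genome or annotation was used here, so genes, promoters and sequences are not given, and the cell type labels were not checked against marker genes.

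In ATAC-seq, the transposase Tn5 cuts DNA that is not wrapped in nucleosomes, and a peak marks where cuts pile up. A protein that sits on the DNA shields its site, which leaves a short gap in the cuts inside the peak, a footprint. Regions that are open in many cell types are often promoters of widely used genes or sites of the insulator protein CTCF, whereas enhancers tend to be open in fewer. cDC1 present antigens taken up from other cells to cytotoxic T cells, and pDC secrete type I interferon after sensing viral nucleic acids. Which of the members are promoters or CTCF sites was not examined.

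Few footprints were less frequent among narrow shared regions with more tags. The share of narrow shared regions that had 1 to 4 footprints in both lists was 26.9% where the largest cDC1 tag count was at most 100 and 20.1% above 100 and up to 200. It was 9.17% above 800 and up to 1200, 9.51% above 1200 and up to 1600 and 8.39% above 1600. The share changed little above 800 tags. Near the limit on the cDC1 tag count, members with 800 and 803 stood beside regions with 795 and 794 that were not counted, and near the limit in pDC members with 200 and 202 stood beside 2 regions with 199 each.

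The largest tag count of a member ran from 800 to 3841 in cDC1, with a median of 1190, and from 200 to 1318 in pDC, with a median of 325.5. The members were 348 to 983 bp wide, with a median of 627.5 bp. In the cDC1 list, 36 members had 1 footprint, 65 had 2, 86 had 3 and 111 had 4. In the pDC list the numbers were 35, 63, 88 and 112. The cell types thus had nearly the same spread of footprint numbers, although a given member often differed. The numbers were equal in 81 members (27.2%), higher in cDC1 in 108 and higher in pDC in 109. Over all shared autosomal regions cDC1 had more footprints in 55.2% and pDC in 34.3%. The ceiling of 4 in both lists holds the members close to equality. The like spread and the contrast with all shared regions thus follow in part from the rule. Other narrow shared regions under this ceiling, with a tag count below a limit, had equal numbers in 27.9%. In 39.2% of them cDC1 had more, and in 32.9% pDC.

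**Figure D1:**
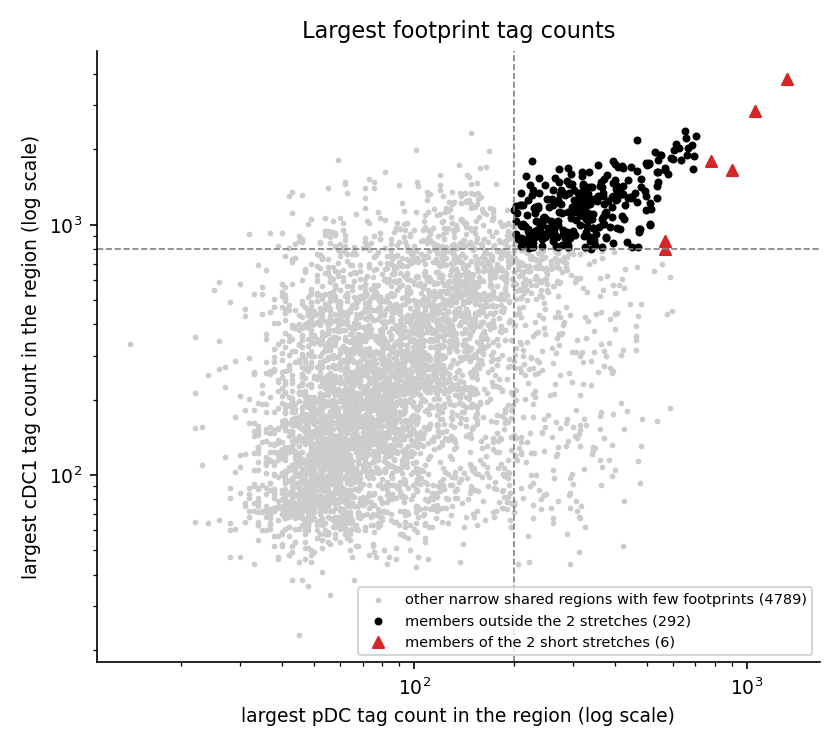
Largest pDC tag count (x axis, log scale) and largest cDC1 tag count (y axis, log scale) of each narrow shared region with 1 to 4 footprints per list, 1 point per region, with dashed lines at the limits of 200 and 800. The 298 members lie in the upper right corner above both limits, and 6 of them (triangles) come from 2 short stretches of the genome, with tag counts from 803 to 3841 in cDC1 and from 566 to 1318 in pDC.

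As comparison served 3 sets of shared autosomal regions. The first was narrow and met the same limits on the tag count, with 5 or more footprints in at least 1 list (3728 regions). The second was narrow with 1 to 4 footprints in each list but under a limit on the tag count (4789 regions), and the third was all 40028 shared autosomal regions, members included. They are called strong regions with more footprints, weaker regions with few footprints, and all shared regions. Their median widths were 791.5, 441 and 593 bp, beside 627.5 bp in the members. The part of width in the differences between sets was not tested. Shares are given with 95% Wilson intervals and medians with 95% intervals from order statistics, which cover counting error only. Neighbouring regions and footprints are not independent, and the difference between sets was not tested.

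The peaks of the members were simple in shape and closely matched between the cell types. Each list had a single summit, the point of highest signal in a peak, in 98.0% of members (95.7 to 99.1%). The share was 87.2% of strong regions with more footprints, 96.7% of weaker regions with few footprints and 76.8% of all shared regions. The bases open in both cell types made up a median of 86.6% of the member, beside 87.1%, 70.8% and 76.5% in the 3 sets. The interval was wider in cDC1 in 76.2% of members, and in 74.6 to 77.4% of regions in the other sets.

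The summits of both cell types lay a median of 14 bp apart in the members (12 to 17 bp), with quartiles of 7 and 27.75 bp. In the strong regions with more footprints the median was 18 bp (17 to 19 bp), in the weaker regions with few footprints 31 bp and in all shared regions 30 bp. The summits were at most 10 bp apart in 113 members (37.9%, 32.6 to 43.5%), beside 31.2%, 20.1% and 20.5%. The summits were thus closer together in both strong sets than in the weaker set, and closest in the members. With members limited to 1 to 3 footprints per list, however, their median was 18 bp (14 to 21 bp). Strong regions with more footprints had the same median.

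Fold enrichment, the ratio of the signal to the MACS2 background, was a median of 11.6 in cDC1 and 7.81 in pDC, close to the 12.2 and 7.96 of strong regions with more footprints. The medians over all shared regions were 6.94 and 4.41. The −log10 q of the peaks was a median of 364 in cDC1 and 79.5 in pDC. Across the 298 members, fold enrichment in cDC1 and in pDC were correlated on the log2 scale (Pearson r = 0.90, a description over regions that share both libraries). The largest tag count and the fold enrichment of the same list were hardly related in the members (r = 0.07 in cDC1 and 0.14 in pDC), while in strong regions with more footprints, which met the same limits, r was 0.28 and 0.43, and over 39152 shared autosomal regions with footprints in both lists r was 0.77 and 0.78. The members cover only the upper range of the tag count, which the rule sets. Without 6 members described next, r was 0.19 and 0.38.

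In 2 short stretches lay 6 members with low fold enrichment. They were singled out after their values were seen. On chromosome 11, 4 members stood within 6557 bp, at chr11:3053626-3054279, chr11:3056507-3057225, chr11:3057348-3058114 and chr11:3059452-3060182. On chromosome 17, 2 members stood within 1178 bp, at chr17:39984514-39984917 and chr17:39985082-39985691. The chromosome 17 pair had the largest tag counts of all members, 3841 and 2848 in cDC1 and 1318 and 1060 in pDC. Their fold enrichment was nonetheless only 1.97 and 1.82 in cDC1 and 1.67 and 1.77 in pDC. The 4 on chromosome 11 had cDC1 tag counts of 803, 859, 1791 and 1659 and pDC tag counts of 567, 566, 780 and 902, and their fold enrichment lay between 1.44 and 3.06 in cDC1 and between 1.38 and 2.36 in pDC. Fold enrichment was thus low in all 6 in both cell types, while their cDC1 tag counts ran from near the limit of 800 to the highest of all members, and all their pDC tag counts lay above the median of 325.5. The 4 had 32 to 34 other open regions within 25 kb, and 34 was also the highest number at any of the 40028 shared autosomal regions. The pair on chromosome 17 had 2.

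**Figure D2:**
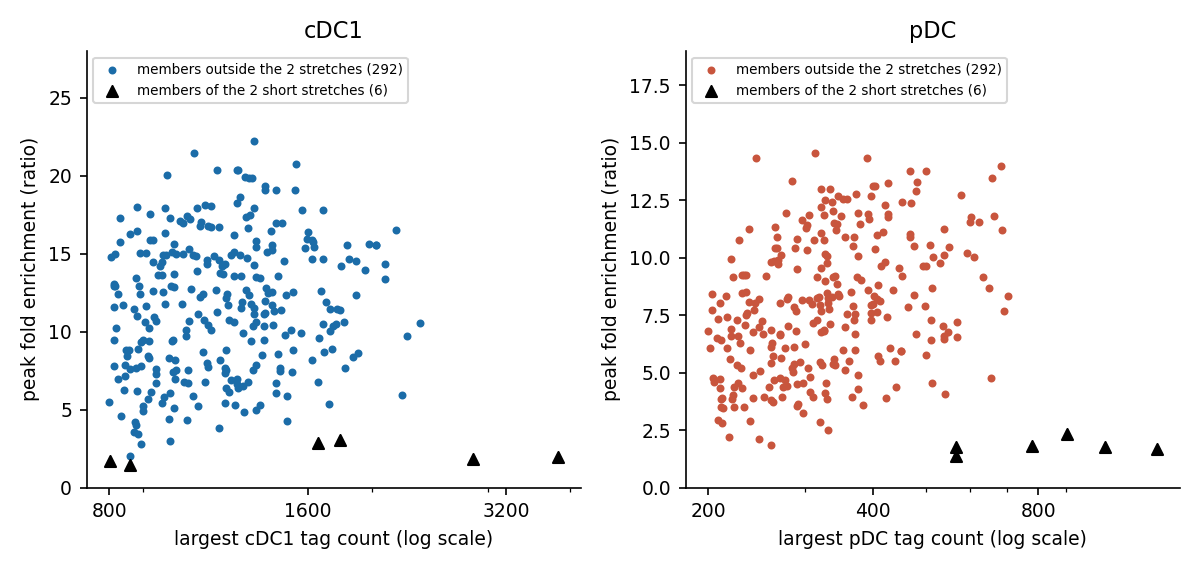
Largest tag count (x axis, log scale) against the fold enrichment of the peak (y axis, ratio to the MACS2 background) of each member in cDC1 and in pDC. The 6 members of the 2 short stretches (triangles) lie at fold enrichments of 1.38 to 3.06, while the medians of all members are 11.6 and 7.81.

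Apart from these 6, fold enrichment was under 3 in 3 of 292 members in cDC1 (1.03%) and in 8 in pDC (2.74%). Over all 298 it was under 3 in 8 in cDC1 (2.68%) and in 14 in pDC (4.70%). The shares were 0.21% and 0.99% in strong regions with more footprints, 24.0% and 34.9% in weaker regions with few footprints and 9.88% and 18.8% in all shared regions. At chr11:68910468-68910852, outside the 2 stretches, fold enrichment was 2.02 in cDC1 and 1.84 in pDC, inside the range of the 6. At nearly equal fold enrichment the −log10 q still varied. Among the 14 members with a cDC1 fold enrichment from 5 to 6, the −log10 q ran from 142 to 483, and among 27 members in the same range in pDC from 34.9 to 96.2. The paper lists the option nolambda for MACS2. Which background these ratios rest on, and why the −log10 q varied, was not tested.

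The footprints of the members were broad, few and close to the summit. The members held 868 cDC1 and 873 pDC footprints, with median widths of 22.5 and 22 bp. In the strong regions with more footprints the medians were 16 and 17 bp, in the weaker regions with few footprints 19 and 21 bp, and in all shared regions 16 and 17 bp. A width of 30 bp or more was found for 34.0% of cDC1 footprints in members (30.9 to 37.2%) and for 34.4% of pDC footprints (31.3 to 37.6%). The corresponding shares were 20.5% and 22.7% in strong regions with more footprints, 29.8% and 32.5% in weaker regions with few footprints and 21.1% and 25.01% in all shared regions. Among strong regions, footprints were thus broader where they were few. The broadest footprint of a member measured a median of 37 bp in cDC1 and of 38 bp in pDC, not above the 42 bp in both lists of strong regions with more footprints. Regions with more footprints therefore had broad ones too, among many short ones.

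Footprints covered a median of 11.4% of a member in cDC1 and 11.8% in pDC, beside 22.1% and 20.4% of strong regions with more footprints, a difference that low footprint number itself gives. From the first to the last footprint base the members spanned a median of 110 bp in cDC1 and 119.5 bp in pDC. On the left the region went on for a median of 241 bp beyond the footprints in cDC1 and 233.5 bp in pDC, and on the right for 254 and 253 bp. The footprints thus sat in the middle of the open region with wide margins on both sides. In a median member the footprint with the lowest tag count still had 83.9% of the tags of the highest one in cDC1 and 84.0% in pDC, where a member with a single footprint counts as 100%. In weaker regions with few footprints the values were 79.7% and 81.7%, and in strong regions with more footprints, whose footprints spread further, 31.5% and 42.2%.

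Around the summit the members showed a sharp rise in coverage. At the summit itself 50.7% of members had a footprint in cDC1 and 48.7% in pDC. At 100 bp to the left 11.7% had one in cDC1 and 8.39% in pDC, and at 100 bp to the right 6.71% and 8.39%. Strong regions with more footprints went from 64.6% at the cDC1 summit to 37.0% at 100 bp to the left. Of the footprints in members, 59.0% in cDC1 (55.7 to 62.2%) and 56.6% in pDC (53.3 to 59.8%) had their middle within 50 bp of the summit of their own list. The weaker regions with few footprints had 49.7% and 44.4%, the strong regions with more footprints 36.3% and 37.8%. Within 100 bp the shares were 82.1% and 79.8% in members, 80.3% and 76.3% in the weaker and 63.7% and 65.6% in the strong set. The strongest footprint of a member lay a median of 22 bp from the summit in cDC1 and 21.5 bp in pDC. These medians were similar in strong regions with more footprints, 22.5 and 24.5 bp. They were 29.5 and 38 bp in weaker regions with few footprints and 27 and 35 bp in all shared regions.

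**Figure D3:**
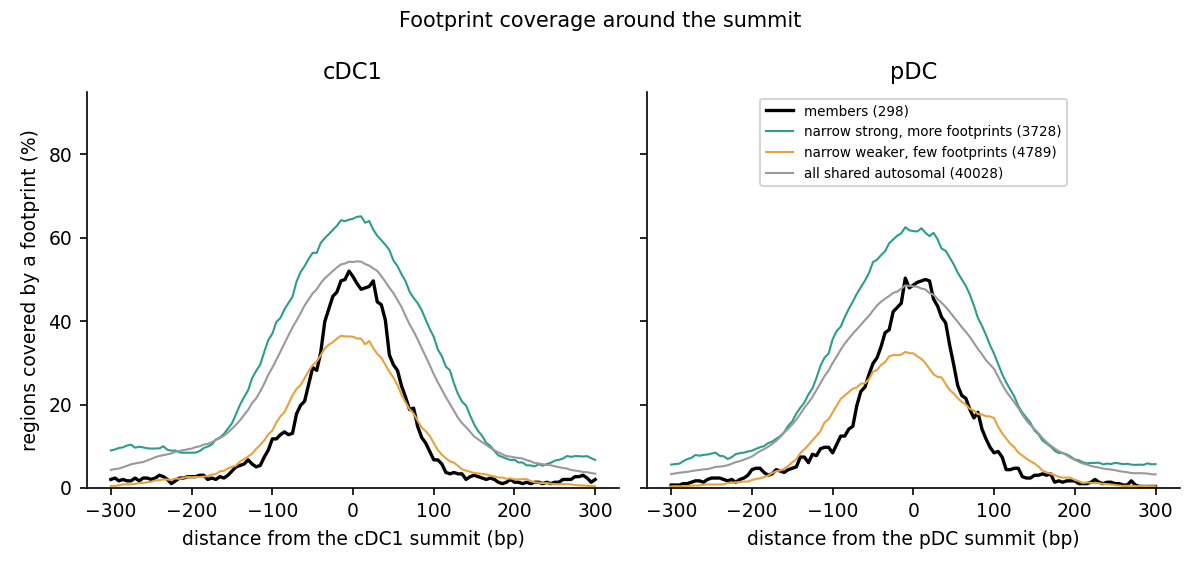
Share of regions covered by a footprint (y axis, percent) at each distance from the summit (x axis, bp), for cDC1 and pDC, in the members (black) and the 3 comparison sets. The members reach 50.7% at the cDC1 summit and 48.7% at the pDC summit and fall to between 6.71% and 11.7% at 100 bp on either side.

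Many footprints of a list lay next to each other, with a median gap of 5 bp inside the members in both lists. When footprints of a list at most 5 bp apart were joined, 544 joined footprints remained in cDC1 and 554 in pDC, with a median width of 33 bp in both. Then 122 members (40.9%) had a single joined footprint in cDC1 and 119 had 2, and in pDC 118 had 1 and 118 had 2. Of weaker regions with few footprints 29.8% in cDC1 and 33.4% in pDC had a single one, and of strong regions with more footprints 7.001% and 7.35%. This joining was added after the data were seen.

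About as many footprints of the members were shared between the cell types as were not. A footprint was called shared where at least 50% of its bases lay in footprints of the other list. By this rule 430 of 868 cDC1 footprints (49.5%, 46.2 to 52.9%) and 420 of 873 pDC footprints (48.1%, 44.8 to 51.4%) were shared. The shares were 60.4% and 65.4% in strong regions with more footprints, 33.2% and 34.4% in weaker regions with few footprints and 47.9% and 52.7% in all shared regions. The shares in members thus lay between those of the strong and the weaker set, and nearest to those of all shared regions. Footprints cover more of the region in the strong set, and the part of this density in the difference was not tested.

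The strongest footprint of a member was shared more often than footprints in general. It lay near the summit, where footprint coverage was high, and the part of this position was not tested. The strongest footprint was shared in 184 members in cDC1 (61.7%, 56.1 to 67.1%) and in 187 in pDC (62.8%, 57.1 to 68.0%). In all shared regions the shares were similar, 59.2% and 64.4%. They were 77.7% and 81.2% in strong regions with more footprints and 39.2% and 41.0% in weaker regions with few footprints. At least 1 shared footprint of either list was found in 251 members (84.2%, 79.7 to 87.9%), and 47 members had none. Among the 3728 strong regions with more footprints, which give more chances for a match, 99.0% had at least 1. Among the weaker regions with few footprints 70.2% had 1 or more, and among all shared regions 90.1%.

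Sharing fell with distance from the summit. Of cDC1 footprints within 25 bp of the summit 65.4% (59.7 to 70.7%) were shared, of those at 25 to 50 bp 56.2%, at 50 to 100 bp 42.3%, at 100 to 200 bp 30.6% and farther out 7.14% (5 of 70 footprints). In pDC the shares were 61.8%, 56.9%, 44.8%, 22.7% and 12.3% (7 of 57). Tag counts fell along with it. The median tag count of a footprint was 1162 within 25 bp of the cDC1 summit and 148.5 beyond 200 bp, and in pDC it was 325 and 80. Footprint coverage of the members fell as well, from 50.7% at the cDC1 summit and 48.7% at the pDC summit. At 100 bp it lay between 6.71% and 11.7%. A footprint far from the summit thus had fewer of the other list to match. The parts of the tag count and of coverage in the fall of sharing were not tested.

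**Figure D4:**
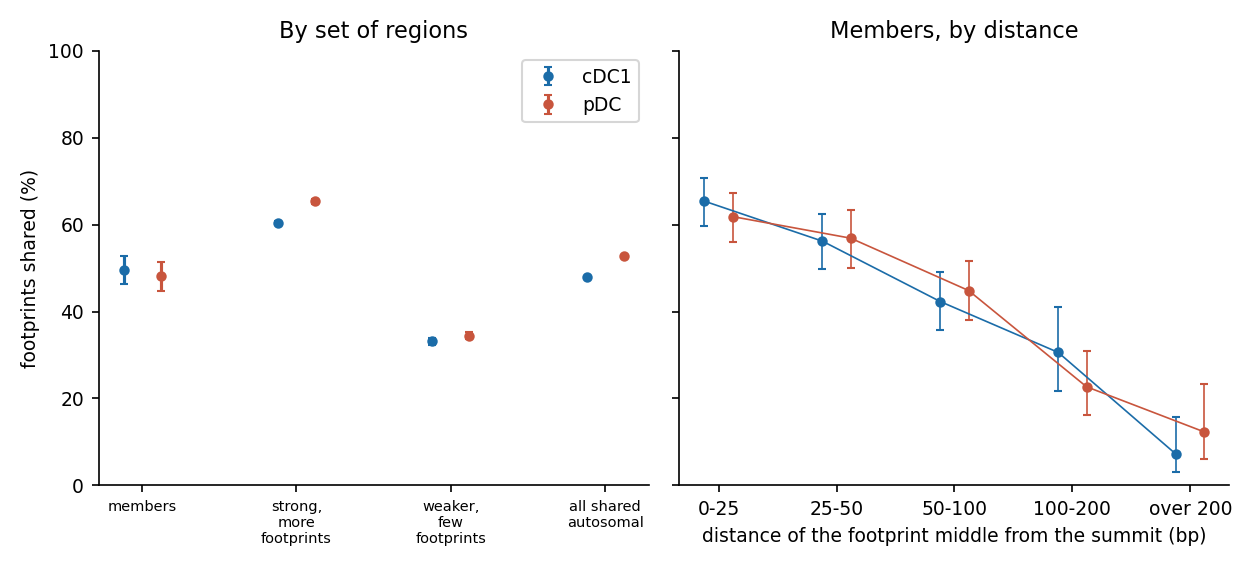
Share of footprints (y axis, percent) whose bases are covered to at least 50% by footprints of the other cell type, with 95% Wilson intervals, in the members and the 3 comparison sets (left) and in the members by distance from the summit (right). Members lie at 49.5% in cDC1 and 48.1% in pDC, and within members the share falls from 65.4% and 61.8% near the summit to 7.14% and 12.3% beyond 200 bp.

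Most footprints that were not shared lay more than 10 bp from any of the other cell type. Of 438 unshared cDC1 footprints in members, 77 (17.6%) overlapped a pDC footprint by fewer than 50% of their bases and 112 (25.6%) lay at most 10 bp from one, which left 249 (56.8%) farther away. Of 453 unshared pDC footprints the numbers were 84, 90 and 279 (61.6%). The shares farther away in cDC1 and pDC were 59.1% and 55.2% in strong regions with more footprints. They were 65.1% and 62.9% in weaker regions with few footprints and 65.8% and 60.0% in all shared regions. When all footprints of both lists were merged, the members held 1102 segments, of which 394 (35.8%, 33.0 to 38.6%) held footprints of both lists, 346 (31.4%) only of cDC1 and 362 (32.8%) only of pDC. Segments with both had a median width of 39 bp, those with cDC1 footprints alone 21.5 bp and those with pDC footprints alone 21 bp. In strong regions with more footprints 46.7% of segments had both, and in weaker regions with few footprints 26.2%. In all shared regions 35.0% had both, about the share in members.

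Where footprints matched, their ends often did not. Footprints of the 2 lists that covered each other to 50% or more were paired 1 to 1, which gave 286 pairs in 197 members (66.1%). Both ends were identical in 56 pairs (19.6%, 15.4 to 24.6%), and both lay within 2 bp in 29.7%. In strong regions with more footprints 27.3% of pairs had identical ends and 41.9% had both within 2 bp. The strongest cDC1 and the strongest pDC footprint of a member lay a median of 20.75 bp apart (17 to 25.5 bp), beside 16.5 bp in strong regions with more footprints, 38 bp in weaker regions with few footprints and 27 bp in all shared regions. As chosen with 1 to 4 footprints per list, the members thus had the smallest median distance between summits of the 4 sets. This was not so between strongest footprints.

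Exactly 1 footprint in each list was found in 8 members. In 5 of them the pair overlapped, though in 1 of these, chr11:32442571-32443273, footprints of 7 and 10 bp had only 3 bp in common, and in 3 the pair did not overlap. The strongest of the overlapping ones was chr11:116294911-116295683, 773 bp wide, with 2095 tags in cDC1 and 610 in pDC. Its cDC1 footprint ran from 116295301 to 116295342 (42 bp) and its pDC footprint from 116295298 to 116295342 (45 bp), so the right ends were the same. At chr6:113187449-113188123, with 1483 and 365 tags, the footprints were 54 and 53 bp wide and also ended at the same base, 113187824. At chr11:68912002-68912598, with 1722 and 422 tags, they began at the same base, 68912332, and were 47 and 38 bp wide. The footprint at chr2:167946176-167946737 was identical in both lists, 14 bp from 167946414 to 167946427. By contrast, at chr4:124795116-124795790 footprints of 31 and 30 bp lay 93 bp apart, although the summits differed by 56 bp. At chr7:133430924-133431517 they were 56 bp apart and at chr7:13534654-13535357 they were 4 bp apart. The single footprint was therefore at the same place in both cell types in some members and elsewhere in others.

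The 5 members with the best sum of ranks of both tag counts included the chromosome 17 pair. The other 3 differed in how well their footprints matched. At chr12:86113648-86114465, with 2093 and 684 tags and fold enrichments of 14.4 and 14.0, 3 footprints stood in each list. The first was the same in both, from 86113969 to 86113995, the second began at the same base, 86113998, and measured 43 bp in the cDC1 list and 41 bp in the pDC list, and the third was not shared. At chr13:30077765-30078558, with 2368 and 650 tags, 4 cDC1 footprints and 3 pDC footprints stood in a block around the summit, and 2 of each were shared. At chr5:138069677-138070606, with 2263 and 705 tags, the summits were at the same base, yet none of the 4 cDC1 and 3 pDC footprints was shared. The pDC footprints there lay to the left of the summit and were 8 to 11 bp wide, and their middles were at -239.5, -198.5 and -103 bp from it. The cDC1 footprints were 18 to 54 bp wide.

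**Figure D5:**
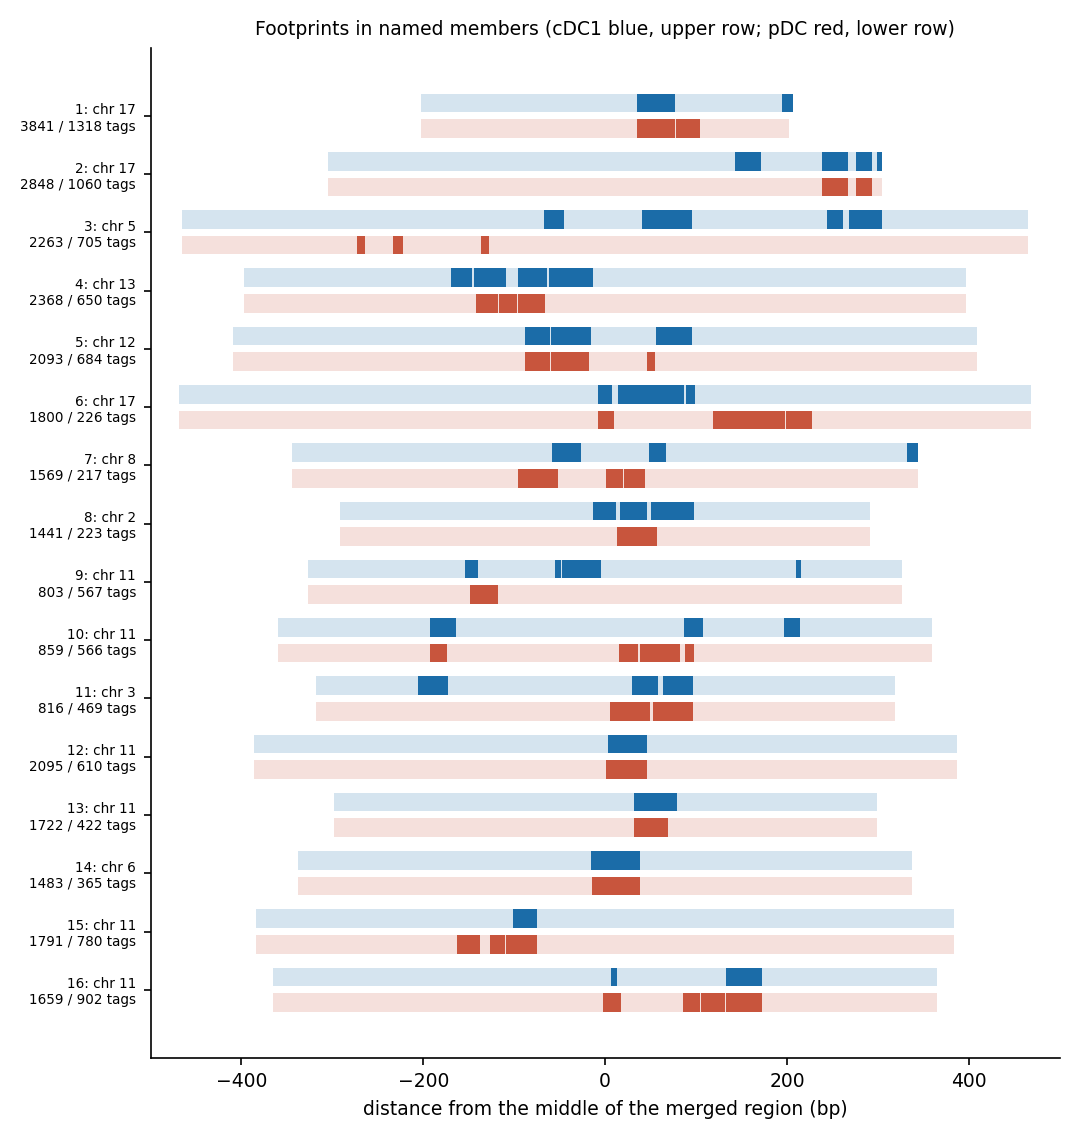
Merged regions (pale bars) and footprints (dark bars) of named members by distance from the middle of the region (x axis, bp), with cDC1 above and pDC below in each row and the largest tag counts of cDC1 and pDC at the left. Rows 1 to 5 have the best sum of ranks, 6 to 8 the highest and 9 to 11 the lowest scaled ratio, 12 to 14 have 1 footprint in each list, and 15 and 16 are the other members of the chromosome 11 stretch. Footprints of both lists coincide in rows 12 to 14, and none is shared in row 3.

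The ratio of the largest cDC1 to the largest pDC tag count was a median of 3.61 in the members, with a range of 1.42 to 7.96. The tag counts are not scaled for library size, so the ratio was divided by 3.23, its median over 39152 shared autosomal regions. The scaled ratio had a median of 1.12 (1.07 to 1.15) and a range of 0.44 to 2.47, and that of strong regions with more footprints was 1.12 as well. Divided instead by the ratio of the sums over all footprints, the median was 0.864, so the scaling decides whether the members stand above or below equality. After the main scaling, 3 of 298 members were at least 2-fold higher in cDC1, where 10.5% of all shared autosomal regions were, and 2 were at least 2-fold higher in pDC, where 13.7% were. Both limits on the tag count bear on the ratio, so nothing is read from these low numbers.

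The 3 members with the highest scaled ratio were chr17:80461078-80462014 with 1800 cDC1 and 226 pDC tags (2.47, exact 95% interval 2.15 to 2.84, for counting error only), chr8:74692944-74693632 with 1569 and 217 tags (2.24, 1.94 to 2.59) and chr2:118375198-118375780 with 1441 and 223 tags (2.00, 1.74 to 2.31). In all 3 the pDC tag count lay near the limit of 200. Fold enrichment was also higher in cDC1 there, 14.2 against 7.30, 17.8 against 7.41 and 8.60 against 4.40. The 3 lowest were chr11:3053626-3054279 (0.44, 0.39 to 0.49), chr11:3056507-3057225 (0.47, 0.42 to 0.52) and chr3:81729615-81730251 with 816 and 469 tags (0.54, 0.48 to 0.60). The lowest pair belongs to the chromosome 11 stretch. Without the 6 members of both stretches none was 2-fold higher in pDC.

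Over 286 pairs of footprints in members the median ratio of the tag counts was 3.47, with an SD of 0.38 on the log2 scale. The SD was 0.34 in strong regions with more footprints, 1.00 in weaker regions with few footprints and 0.77 in all shared regions. The limits on both tag counts narrow this spread in the members and the strong set alike, so nothing is read from it.

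Members stood in crowded surroundings. The nearest other open region was a median of 1485.5 bp away (1205 to 1813 bp), beside 2542 bp for strong regions with more footprints, 2216 bp for weaker regions with few footprints and 2975 bp for all shared regions. Another open region lay within 5 kb of 258 members (86.6%, 82.2 to 89.99%), beside 69.2%, 73.1% and 65.4%, and within 1 kb of 109 members (36.6%, 31.3 to 42.2%), beside 28.3%, 29.5% and 25.3%. Counting only regions open in both cell types, 62.4% of members had a neighbour within 5 kb (56.8 to 67.7%), beside 46.5%, 47.9% and 38.2%. Neighbours thus were nearer to members than to each of the 3 sets, also without the 6 members of the stretches, where 86.3% had one within 5 kb. Position of neighbours was not used by the rule, except that regions that touch had been merged.

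Some members lay near another member. Members were 298 of 40028 shared autosomal regions, and whether they group more or less than other shared regions was not tested. Less than 5 kb separated 9 neighbouring pairs of members, in 6 groups that held 15 members. Besides the 2 stretches these were 3 members at chr11:68910468-68913805, with cDC1 tag counts of 860 to 1722, and pairs at chr11:119786422-119790093, chr13:23665913-23667807 and chr5:138069677-138072837. Over the chromosomes, members made up from 3.72 per 1000 shared regions on chromosome 3 to 10.6 on chromosome 17, and the 20 members of chromosome 17 include the pair above.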

How the data were processed

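Open chromatin was profiled by Omni-ATAC-seq. Per the study's methods, Trim Galore, Bowtie2 and SAMtools served the authors to trim, align and filter reads by duplication and mapping quality, MACS2 gave the peaks and HINT-ATAC the footprints, on pooled replicates. No source used here gives their versions. The authors' deposited fold enrichment (a ratio to the MACS2 background) and −log10 q belong to a summit. The count listed per footprint in the files as deposited by the authors was read as unscaled tags, whose counting window is not given. Positions go past the GRCm38 end on 8 of 21 chromosomes and were taken as mm9, as the submitters' processing notes name.

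Intervals were merged with bedtools 2.31.1, and a region took the summit with the largest −log10 q per list. Statistics used scipy 1.17.1, pandas 2.3.3 and numpy 2.4.6 under Python 3.11.15, and figures used matplotlib 3.10.9. The choice of members, the sharing of cDC1 footprints and the 2-fold calls were tested on simulated data, and the other steps were not. Named regions were the 5 with the best sum of ranks of both tag counts, the 3 highest and 3 lowest scaled ratios, the 3 best-ranked with 1 overlapping footprint per list, and the 2 nearest each tag limit on either side; the other members with 1 footprint per list, and the groups of neighbouring members, were named after their values were seen. Members and lists were chosen with earlier results of these data known. Promoter shares and motifs were planned but not computed, since an mm9 genome and annotation were not used here.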

Additional observations from a re-analysis of the deposited data

How the results depend on the processing

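Of 120 values recomputed under 22 alternatives, 87 stayed within 1.5 times the main count or inside the interval of the main share or median. The number of members was 529 with limits on the tag counts 25% lower and 179 with limits 25% higher, 117 with 1 to 3 footprints per list and 559 with 1 to 5. The numbers of members called 2-fold higher in cDC1 or in pDC were 22 and 8 with the lower limits, 0 and 0 with the higher limits, 1 and 0 with 1 to 3 footprints and 9 and 6 with 1 to 5. At a 1.5-fold limit they were 39 and 12, and at a 3-fold limit 0 and 0. Scaled by the median over shared regions under 1000 bp, 5 were higher in cDC1 and the median scaled ratio was 1.15, and scaled by the sums over all footprints 0 were higher in cDC1 and 11 in pDC at a median of 0.864. Among members whose −log10 q reached 50 in each list the median was 1.07 and 0 were higher in pDC, as also without the 6 members of the 2 short stretches and with a fold enrichment of at least 3 in both lists. Sharing in cDC1 and pDC was 58.4% and 57.7% at an overlap of 1 bp, 32.9% and 32.8% at 50% of both footprints, and in cDC1 43.8% with 1 to 3 footprints per list, where the summits lay a median of 18 bp apart. The widest footprints lay a median of 39 bp apart. With only neighbours open in both cell types, 62.4% of members had one within 5000 bp. The setting itself changes what is counted in each of these, and further causes were not tested.

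Leaving out the 6 members, the limit of 3 on fold enrichment, the joining of footprints and the choice of neighbours were added after the data were seen. No paired analysis was possible because each deposited list pools the replicates, and leaving out a replicate was not run for the same reason. Promoter shares and motif matches, with their alternatives, were not run. Values rest on 1 pooled library per cell type, so intervals cover counting error only. Reads are PCR products without molecular identifiers, from which the authors removed duplicates. Tag counts were lower in pDC, and the part of this in the number of footprints listed there was not tested.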

Other observations

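Sharing did not change in order with the number of footprints in a member. Of cDC1 footprints in members with 1 of them 18 of 36 were shared, and with 2, 3 and 4 of them 60.8%, 46.1% and 48.2%. In pDC the shares were 62.9% (22 of 35), 60.3%, 45.1% and 45.3%. Single footprints were broader, with a median of 32.5 bp in cDC1 and 31 bp in pDC, beside 20 bp in both lists for members with 4.

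Footprints that reached the last base of a peak on the right made up 2.19% in cDC1 (19 of 868) and 1.26% in pDC (11 of 873) of those in members. In strong regions with more footprints they were 1.83% and 2.05%, and in weaker regions with few footprints 4.49% and 7.93%.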
